A study of Mus musculus with 8 samples.

Results

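The genes described here are 99 abundant protein-coding genes whose level was lower in every colon tumour library of knockout mice than in every wild-type library. They were taken from a deposited table of 1428 genes by 3 conditions on gene type and on normalized counts, which are read counts per gene divided by 1 scaling factor per library. The gene had to be protein-coding, its mean over the 8 libraries had to be at least 500 normalized counts, and its highest knockout value had to lie below its lowest wild-type value. Of the 1428 genes, 1097 were protein-coding and 493 of these reached the mean. Among those 493 genes 115 (23.3%) lay wholly lower in the knockout and 155 (31.4%) wholly higher. Over all 1428 genes 296 (20.7%) lay wholly lower. A total of 16 of the 115 genes were left out by name, because they belong to families such as ribosomal proteins or solute carriers, and 99 remained. The separation of the groups is therefore how the genes were chosen and is not a finding about them, and their levels are given below as a description without a test.

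The study compared colon tumours of 4 wild-type libraries (WT 1 to WT 4) with those of 4 libraries labelled miR-29ab1Vilin-KO (KO 1 to KO 4) by RNA sequencing of total RNA. All mice are labelled C57BL/6N, an inbred strain. Per the series' design text the tumours were induced with azoxymethane, a carcinogen, and with the colitis-inducing agent dextran sodium sulfate, and miR-29ab1 was disrupted in the intestinal epithelium only. The other cells of a tumour, such as immune cells and fibroblasts, keep the gene in such a model, and the age of the animals and the origin of each library from 1 animal or a pool are not stated in the labels. The table holds genes with an unadjusted p below 0.05 only, so its fold changes tend to overstate those of an unselected set of genes. In tumour tissue a lower level can stand for fewer cells of a type or for less RNA per cell, and these cannot be told apart in bulk RNA.

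By their known roles these genes include factors that assemble ribosomes in the nucleolus, enzymes that make amino acids, polyamines and nucleotides, chaperones of histones, parts of the mitotic spindle and the machinery that transcribes, splices and translates messages. In the colon such genes are typically expressed at high levels in the dividing cells of the crypt base and in tumour cells. MicroRNAs pair with sites in the 3′ untranslated region of a messenger RNA through a short seed at their 5′ end and typically lower its level.

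The microRNAs that were deleted set the site that can be looked for in these genes. The mature sequences of the 2 members of the miR-29ab1 cluster are printed 5′ to 3′ as in RefSeq (build GRCm38.p6), with the seed (bases 2 to 8) in capitals, at chr6:31062673-31062694 and chr6:31063025-31063047, both on the minus strand.
mmu-miR-29a-3p: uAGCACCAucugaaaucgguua
mmu-miR-29b-3p: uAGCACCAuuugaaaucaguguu
Both share the seed AGCACCA, and its match in a message is TGGTGCT. No gene of this locus was among the genes analysed here, so the deletion itself was not checked.

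In the authors' deposited table the log2 fold changes of the 99 genes ran from -1.17 to -0.26 with a median of -0.44. The median over all 1428 listed genes was 0.48, that of the 599 listed genes lower in KO was -0.88, and that of the 190 lower protein-coding genes with a mean of at least 500 was -0.46. The median KO mean was 73.8% of the WT mean. A total of 57 genes lay between 70 and 80%, 28 between 50 and 70%, 13 at or above 80% and 1 below 50%. Only 1 of the 99 had a deposited log2 fold change below -1, against 19.1% of all listed genes. None of the 99 had an adjusted p below 0.05 in the authors' deposited table, where 0.14% of the listed genes, 2 in number, were lower in KO and passed it. All 99 have an unadjusted p below 0.05 there, as every listed gene does, and limma, run for comparison on log2 values, gave 0 genes past an adjusted p of 0.05 and 97 at an unadjusted p below 0.05. These are small decreases in abundant genes, and the group they form was selected by the same contrast.

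**Figure D1:**
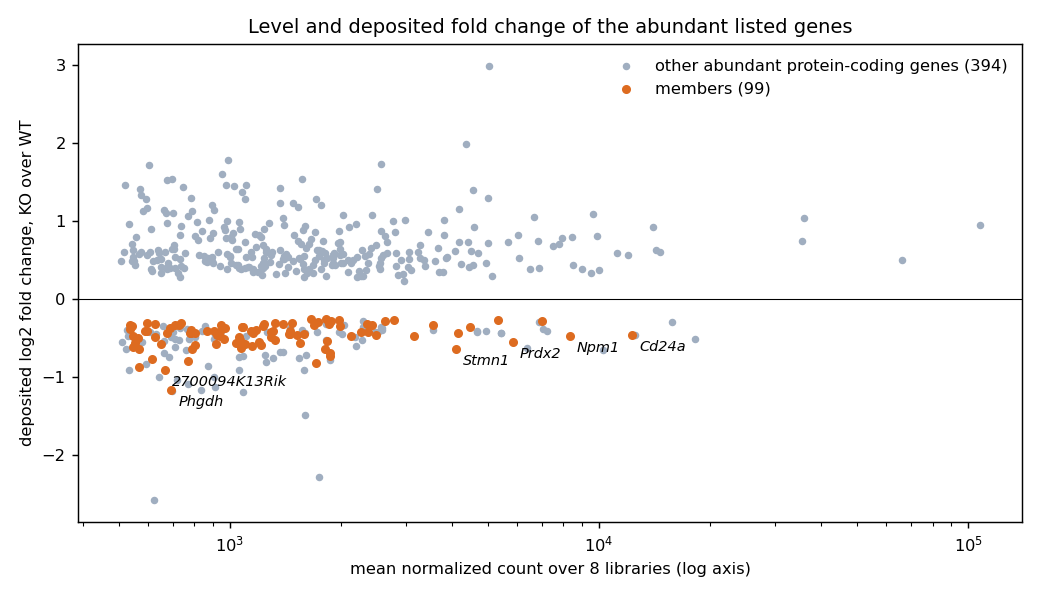
Deposited log2 fold change of KO over WT (vertical axis) against the mean normalized count over 8 libraries (horizontal log axis) for the 493 abundant protein-coding genes, with the 99 members in orange and the other 394 in grey. The members lie between -1.17 and -0.26 and cover means from 535 to 12306 normalized counts.

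Among the libraries, WT 4 and KO 4 stood apart for these genes. Relative to each gene's WT mean, the median member stood at 95.8% in WT 1, 102% in WT 2, 92.5% in WT 3 and 108% in WT 4, and at 74.9% in KO 1, 80.4% in KO 2, 75.1% in KO 3 and 65.3% in KO 4. WT 4 held the highest WT value for 54 of the 99 genes, and KO 4 the lowest KO value for 71. KO 2 was the highest KO library for 60 genes and WT 3 the lowest WT library for 53, so these 2 set the gap between the groups most often. Summed over the 1428 listed genes, KO 4 held 2133832 normalized counts, against 1182670 to 1411124 in the other 7 libraries. That sum covers the selected genes only and is not the depth of the library, on which the labels are silent. With WT 4 left out and the rule applied again, 99 genes met it, of which 97 were the same. With KO 4 left out 103 genes met it, and with both left out 105, and both times all 99 were among them. Leaving out a library cannot undo the separation of a member, so only the mean threshold could have removed one. The median log2 fold change by limma was -0.37 without WT 4, -0.37 without KO 4 and -0.32 without both, against -0.44 with all libraries.

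The same libraries differed in markers of other cells. The 6 B cell markers used (Cd79a, Cd79b, Ms4a1, Pax5, Cd22 and Blk) were all listed and all higher in KO, with a summed level of 47.3 to 122 normalized counts in WT and 122 to 1506 in KO, the highest in KO 4. Of the 6 colonocyte markers, Cdhr5 and Mep1a were listed, with a sum of 5675 to 7488 in WT and 8167 to 23257 in KO, again the highest in KO 4. Of the 7 proliferation markers, Birc5 and Top2a were listed and lower in KO, with a sum of 4888 to 7194 in WT and 3768 to 5505 in KO, the lowest in KO 4. Of the 6 genes of RNA quality and stress, Fos and Fosb were listed and higher in KO, at 1666 to 2353 in WT and 2479 to 3901 in KO. The 2 listed T cell markers (Cd4 and Cd8b1) summed to 14.6 to 26.3 in WT and 34.7 to 98.8 in KO, the 2 listed enteroendocrine markers to 160 to 412 and 242 to 1999, and the 2 listed mast cell markers to 86.0 to 2191 and 11.7 to 449. Of 7 fibroblast markers Dpt was listed, at 60.7 to 124 in WT and 121 to 195 in KO, again the highest in KO 4. Lyve1, of 4 endothelial markers, measured 23.6 to 50.6 in WT and 31.1 to 159 in KO, and Myocd, of 4 smooth muscle markers, 0 to 6.81 and 2.14 to 24.0, all higher in KO. Mpo, of 6 neutrophil markers, stood at 0 in every KO library and at 0 to 23.3 in WT. None of the 6 general epithelial markers (Epcam, Cdh1, Krt8, Krt18, Krt19 and Vil1), the 5 macrophage markers, the 4 goblet cell markers or the 4 plasma cell markers was among the listed genes. The part of these cell types and of stress in the levels below was not tested.

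The most abundant member was Cd24a, which encodes a small, heavily glycosylated surface protein of epithelial and immune cells that is anchored by a lipid. Cd24a measured 14517, 16725, 13785 and 12063 normalized counts in WT 1 to 4 and 10658, 10962, 11515 and 8223 in KO 1 to 4. The KO mean was 10339.6 ± 1455 (SD, n = 4) against 14273 ± 1932 (SD, n = 4) in WT, which is 72.4% of it. WT 4 was the lowest WT library here, unlike in most members, and KO 4 lay well below the other KO libraries. Per kilobase of gene length Cd24a also had the highest level of all members in WT, 7872 normalized counts per kilobase, followed by Npm1 with 3514 and Hdgf with 3259, and the lowest was Camta1 with 66.5.

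The other surface and signalling members were phosphatases and Wnt receptors. Ppp2cb, a catalytic subunit of the phosphatase PP2A, measured 4668, 5146, 5117 and 5235 in WT and 4210.2, 4306, 3292 and 3850.3 in KO, with KO 3 the lowest library. Its KO mean was 77.6% of WT. Ppp2cb overlaps the member Ubxn8 on the opposite strand of chromosome 8. The library kit marks strand, but no label says whether reads were counted by strand, so reads of the shared stretch cannot be told apart. Fzd6 and Ryk, both receptors for Wnt ligands, stood at 66.8% and 79.2% of WT, Dusp1, a phosphatase that switches off MAP kinases, at 77.0%, Ilkap at 68.8% and Ppp4r2, a regulatory subunit of the phosphatase PP4, at 75.2%. The 7 genes of this group had a median of 75.2%. Of 53 symbols of epithelial keratins and junction proteins, Cd24a was the 1 lower gene, while Gjb2, Evpl and Cldn8 were among the higher ones, at 188, 148 and 227% of WT. The groups overlapped for Evpl and Cldn8, and KO 4 was the highest library of all 3, which stood at 144, 130.4 and 126% without it.

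**Figure D2:**
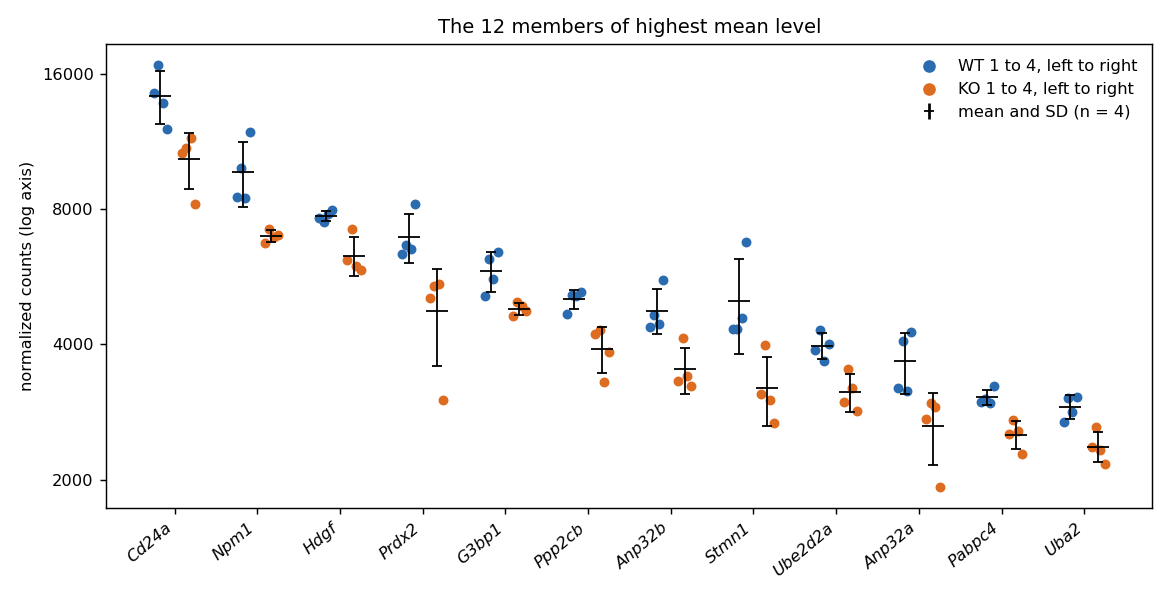
Normalized counts (log axis) of the 12 members of highest mean level, with WT 1 to 4 in blue and KO 1 to 4 in orange from left to right, and the mean and SD of each group in black. The groups do not overlap because the genes were chosen so; the closeness of the 2 groups differs, from Npm1, whose KO libraries lie between 6711 and 7230, to Prdx2, whose KO 4 value of 3011 lies far below the others.

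The role group of ribosome assembly in the nucleolus held 5 members. Npm1 encodes nucleophosmin, an abundant nucleolar protein that takes part in ribosome assembly and binds histones. It measured 8514, 9875, 8485 and 11866 normalized counts in WT and 6711, 7230.4, 6939 and 7014 in KO. WT 4 was the highest library, the 4 KO libraries lay close together, and the KO mean was 6974 ± 214 (SD, n = 4) against 9685 ± 1592 (SD, n = 4), or 72.0% of WT. Without WT 4 that share was 77.8%.

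The other 4 members of the ribosome assembly group were assembly factors of the large ribosomal subunit. Rsl1d1 measured 1985, 2157, 2344 and 2170.1 in WT and 1786, 1846, 1704 and 1826 in KO, or 82.7% of WT. Mrto4 measured 1105, 928, 975 and 1315 in WT and 814, 877, 722 and 881 in KO, or 76.2%. KO 4 was not the lowest KO library for either gene. Nop16 measured 1009.7, 872, 987 and 1279.8 in WT and 823, 851, 779 and 654 in KO, or 74.9%. Nip7 measured 923, 823, 798 and 1078 in WT and 687, 736, 618 and 630.1 in KO, or 73.8%, and in both genes WT 4 was the highest WT library. In a list of 113 symbols of nucleolus and ribosome biogenesis, 7 were in the deposited table, and all 7 were lower in KO, as were 41.9% of all 1428 listed genes (599) and 38.5% of the 493 abundant protein-coding ones (190). This list and those below were drawn up with earlier results of these data known. The 5 members among the 7 lay wholly lower, as the rule requires, beside 20.7% of all listed genes. The 2 that are not members, Fbl and Rsl24d1, stood at 74.1% and 72.8% of WT with overlapping groups. None of the 7 passed an adjusted p of 0.05 in the authors' deposited table. Their median log2 fold change there was -0.43, beside -0.46 for the 190 lower abundant protein-coding genes. With 5 of the 7 chosen as lower, a median below 0 was fixed by the rule.

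Among genes of protein synthesis, G3bp1 and Pabpc4 were the most abundant. G3bp1, which nucleates stress granules, measured 5127, 6187, 5578 and 6429 in WT and 4631, 4961, 4879 and 4755 in KO. Pabpc4, a cytoplasmic protein that binds the poly(A) tail, measured 2974, 3029.6, 2968 and 3227 in WT and 2523, 2713, 2573 and 2277 in KO. Their KO means were 82.4% and 82.7% of WT, which places both among the 13 members with the smallest decreases. Gm6576 needs caution: the table describes it as a copy of the ribosomal protein gene Rps2, so reads shared with such copies make its level uncertain. It measured 1700.3, 1674, 1606 and 4291 in WT and 1502, 1570.0, 1431 and 1211 in KO. WT 4 alone lay far above the rest, and the KO mean of 61.6% of WT became 86.1% without it. Yrdc, an enzyme of tRNA modification, had 1 of the narrowest gaps, with a lowest WT value of 758 and a highest KO value of 757. Ptrh2, a peptidyl-tRNA hydrolase, stood at 79.1% with the lowest mean of all members, 535 normalized counts. Bzw2 (72.5%), the mitochondrial ribosomal protein gene Dap3 (72.9%) and Trmt6 (77.6%), a subunit of a tRNA methyltransferase, completed the 8 genes, whose median was 78.4% of WT.

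Enzymes of amino acid, polyamine and nucleotide synthesis included the member with the largest decrease. Phgdh encodes phosphoglycerate dehydrogenase, the first enzyme of serine synthesis from a glycolytic intermediate. Phgdh measured 693, 618, 706 and 1830.2 normalized counts in WT and 392, 434, 507 and 379.6 in KO. WT 4 lay far above every other library, whereas the other 3 WT libraries and the 4 KO libraries each formed a narrow range. The KO mean of 428 ± 57.5 (SD, n = 4) was 44.5% of the WT mean of 962 ± 580.2 (SD, n = 4), and 63.7% without WT 4. In the authors' deposited table its log2 fold change was -1.17. Asns, which makes asparagine, measured 1096, 1155, 1081 and 1203 in WT and 724, 991, 886 and 571 in KO, with KO 4 the lowest, or 69.97% of WT.

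Odc1, Sms and Nme1 belong to polyamine and nucleotide supply. Odc1 encodes ornithine decarboxylase, the rate-limiting enzyme of polyamine synthesis, and measured 1557, 1632, 1457 and 2034 in WT and 1172, 1218, 1124 and 1386 in KO. It was 1 of the 6 members in which KO 4 was the highest KO library. Sms, which makes spermine, measured 579, 763, 648 and 658 in WT and 486, 484, 468 and 432 in KO, or 70.7% of WT, and the lowest WT value was 1.19 times the highest KO value. Nme1, a nucleoside diphosphate kinase, measured 1361, 1228, 1211 and 2065 in WT and 927, 1171, 952 and 828 in KO. WT 4 was its highest library, and its KO mean was 66.1% of WT, or 76.6% without WT 4. In a list of 51 symbols of nucleotide, folate, polyamine and amino acid synthesis, 6 were listed. All 6 were lower in KO, beside 41.9% lower among all listed genes. The 5 that are members lay wholly lower, as the rule requires, beside 20.7% of all listed genes. The remaining gene, Bcat2, stood at 74.7% of WT with overlapping groups, and none of the 6 passed an adjusted p of 0.05 in the authors' deposited table. The other metabolic members act on sphingolipids (Sptssa and Sgpp1), inositol phosphates (Minpp1) and redox or cofactor steps (Dhrs7, Cyb5r1 and Aasdhppt), and the 11 metabolic genes ran from 44.5 to 83.5% of WT.

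Genes of chromatin and the nuclear envelope made up 11 members, which ran from 69.2 to 81.7% of WT. Hdgf, which encodes a nuclear protein with a domain that binds methylated histone H3 and was first found as a growth factor, measured 7639, 7469.7, 7789.7 and 7947 in WT and 6150.0, 7211, 5983 and 5855 in KO. The WT libraries differed by little, with an SD of 204 on a mean of 7711, KO 2 came close to them, and the KO mean was 81.7% of WT. Anp32b and Anp32a, acidic nuclear proteins that act as histone chaperones, stood at 74.0% and 71.8% of WT. Anp32b measured 4381, 4661, 4432 and 5556 in WT and 3311, 4131, 3404 and 3229 in KO. Anp32a measured 3202, 4065, 3159 and 4255 in WT and 2736, 2962, 2909 and 1929.5 in KO, where KO 4 lay below the other KO libraries.

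Hdac2, a histone deacetylase, measured 2483, 3029.6, 2673 and 2680.0 in WT and 2116, 2400.5, 2052 and 1549 in KO, or 74.7% of WT. H2afv, a variant of histone H2A, measured 1460.1, 1269, 1339.9 and 1848 in WT and 1074, 1218, 1117 and 996 in KO, or 74.4%, with WT 4 again the highest. Cbx3, a heterochromatin protein that reads methylated histone H3, measured 1318, 1315, 1226 and 2424 in WT and 1072, 1221, 1069 and 982 in KO. Its 69.2% of WT became 84.4% without WT 4, and its gap was narrow, with a lowest WT value only 1.004 times the highest KO value. Yeats4, a reader of acetylated histones, had 1 of the widest gaps: 1119, 1049.9, 1018 and 1105 in WT and 765, 828, 756 and 749 in KO, or 72.2% of WT. All 8 of its values lay close to their group's mean. Lemd3, a protein of the inner nuclear membrane, had a gap of only 1.002 times. From a list of 58 symbols of chromatin and transcription cofactors, 7 of the 9 genes in the table were lower in KO and 2 were higher. Among all listed genes, 41.9% were lower. The 2 lower genes that are not members were Anp32e, at 74.2% of WT, and Hmgn1, both with overlapping groups. The 2 higher ones were Ncoa3, at 197% of WT or 148% without KO 4, and Smarca5. Hmgn1 and Smarca5 had very low levels, with means of 9.88 and 3.51 normalized counts in WT and 3.15 and 11.7 in KO.

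**Figure D3:**
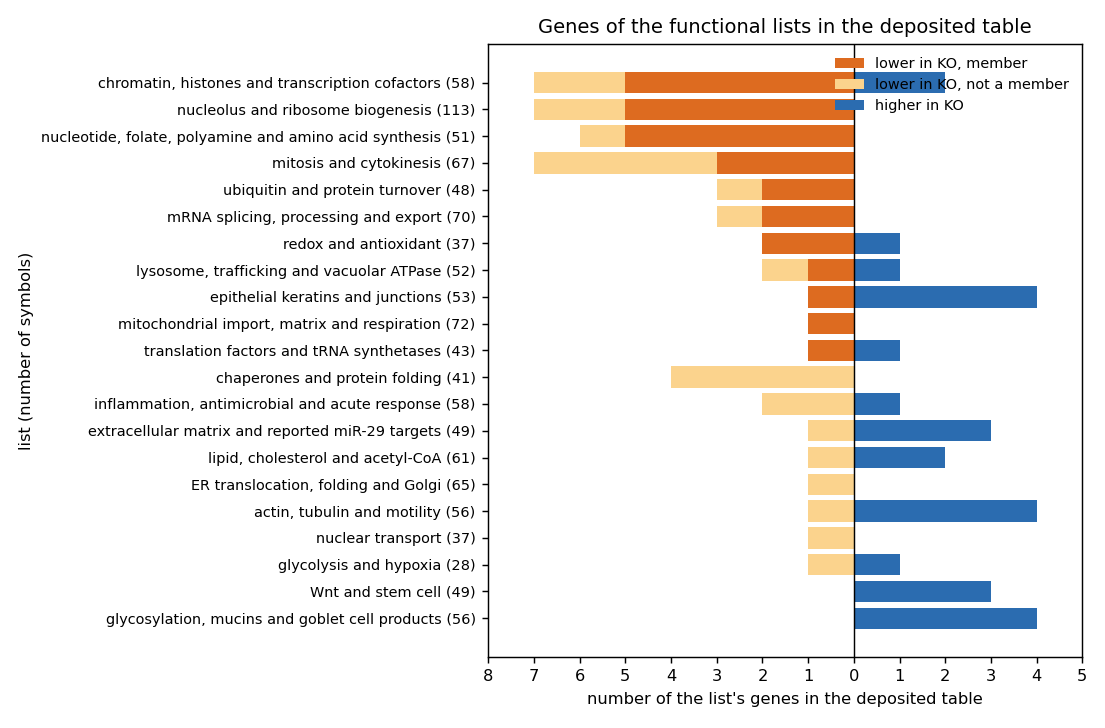
For each of the 21 lists with a listed gene (number of symbols in brackets), the number of its genes in the deposited table that were lower in KO, to the left, split into members (orange) and others (pale), and higher in KO, to the right (blue). The lists of nucleolus, of synthesis and of mitosis hold 7, 6 and 7 lower genes and no higher one. Members are lower by the rule, and 41.9% of all 1428 listed genes were lower. The Wnt and stem cell list holds 3 higher genes and no lower one, but it leaves out the lower members Fzd6 and Ryk.

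Spindle and microtubule genes were represented by 5 members. Stmn1 encodes stathmin, which binds tubulin and promotes microtubule turnover in dividing cells. It measured 4319.9, 4339, 4574 and 6766 normalized counts in WT and 3101, 3993, 3015 and 2678 in KO. WT 4 stood far above the other WT libraries, and the KO mean of 3197 ± 561 (SD, n = 4) was 63.9% of the WT mean of 4999.9 ± 1183 (SD, n = 4), or 72.5% without WT 4. Mad2l1, the checkpoint protein that holds back chromosome separation, measured 1135, 1620.1, 1339.9 and 1154 in WT and 846, 1006, 956 and 718 in KO, or 67.2%. Zwint, a kinetochore protein, measured 1118, 1127, 1055 and 1094 in WT and 727, 896, 808 and 717 in KO, or 71.7%. The WT libraries of Zwint lay close together, and WT 4 was not the highest of them. Nudc and Knstrn, at 72.0% and 75.1% of WT, completed the group, and Nudc stood at 83.2% without WT 4.

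In a list of 67 symbols of mitosis and cytokinesis, 7 were listed and all 7 were lower in KO, beside the same 41.9%, and 3 of the 7 lay wholly lower, beside 20.7% of all listed genes. Those that are not members were Nek2, Ube2s, Cks1b and Ndc80, at 71.5, 73.3, 68.1 and 70.3% of WT with overlapping groups. None of the 7 passed an adjusted p of 0.05 in the authors' deposited table. None of 60 symbols of DNA replication and S phase was among the listed genes. The 4 listed entries of a list of 41 chaperones were all lower, beside the same 41.9%, and none was a member. Hspb1 was entered more than once, at WT means of 68.5 and 113 normalized counts, and Hsp90aa1 had a WT mean of 94.2. Only 1 entry, of Hspb1, lay wholly lower. Of 49 Wnt and stem cell symbols 3 were listed, all higher, where 41.9% of all listed genes were lower, and the groups overlapped for Ccnd2 and Dll1. That list leaves out the Wnt receptors Fzd6 and Ryk, which are members and thus lower in KO.

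The genome upkeep genes had the lowest median of any role, 64.9% of WT over 5 genes, and most of them shared a high WT 4 value. Shfm1, now named Sem1, a small protein of the proteasome that also binds BRCA2, measured 1718, 1726, 1456 and 3835 in WT and 1151, 1417, 1143 and 1215 in KO. Its KO mean of 56.4% of WT became 75.4% without WT 4. Rnaseh2a, the catalytic subunit of ribonuclease H2, which removes RNA from DNA, measured 850.2, 788, 722 and 1494 in WT and 569, 595, 685 and 614 in KO. Its share was 63.9%, and 78.3% without WT 4. Apex1, an endonuclease of base excision repair, stood at 72.6%, Faap20, of the Fanconi anaemia pathway, at 64.9%, and Sfr1, of homologous recombination, at 80.3%.

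Rnaseh2a overlaps the member Prdx2, which lies on the opposite strand of chromosome 8, so the 2 levels cannot be fully told apart without counting by strand. Prdx2, a peroxiredoxin that removes hydrogen peroxide, was the more abundant of the 2, with 6356, 6639.7, 6505 and 8220.1 in WT and 5077, 5405, 5454 and 3011 in KO. Its KO 4 value lay far below the other KO libraries while that of Rnaseh2a did not. The KO mean of Prdx2, 4737 ± 1163 (SD, n = 4), was 68.3% of the WT mean of 6930.3 ± 868 (SD, n = 4), 72.9% without WT 4 and 76.7% without KO 4. Prdx4, the peroxiredoxin of the endoplasmic reticulum, measured 657, 699.6, 643 and 698 in WT and 487, 554, 535 and 447 in KO, or 74.99%, with small spread in both groups.

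The other redox member, 2700094K13Rik (named Selenoh in RefSeq), encodes selenoprotein H of the nucleolus. It measured 734, 715, 672 and 1354 in WT and 503, 504, 545 and 300.4 in KO. WT 4 was the highest and KO 4 the lowest by a wide margin, and 53.3% of WT became 65.5% without WT 4 and 59.5% without KO 4. Of 37 redox symbols, the 2 peroxiredoxins were lower and Txnip, an inhibitor of thioredoxin, was higher, at 162% of WT with overlapping groups. Both peroxiredoxins are members and thus lower by the rule, and 41.9% of all listed genes were lower.

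Of the 9 members of the transcription machinery, Wbp5 and Cebpb had the largest decreases. Wbp5, a small protein related to elongation factor SII and now named Tceal9, measured 2157, 2190.3, 1976 and 2975 in WT and 1107, 1692, 1374 and 1441 in KO, or 60.4% of WT and 66.6% without WT 4. KO 1 was its lowest library. Its neighbour on chromosome X, the member Ngfrap1, lies 25791 bases away. Ngfrap1, now named Bex3, an adaptor of the neurotrophin receptor p75 in cell death, measured 785, 711, 639 and 629 in WT and 441, 491, 491 and 344 in KO, or 63.9% of WT. It had the widest gap of all members, with a lowest WT value 1.28 times the highest KO value, and WT 4 was its lowest WT library.

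Cebpb, a transcription factor of inflammation and differentiation, measured 904, 707, 746 and 1560.0 in WT and 685, 597, 660.2 and 319 in KO. Its 57.7% of WT became 71.9% without WT 4 and 66.1% without KO 4, so the group means lay closer without either library. Gtf2h5, the smallest subunit of the repair and initiation factor TFIIH, had 1 of the 3 narrowest gaps, with a lowest WT value of 989 and a highest KO value of 986. Gpn2, a GTPase of RNA polymerase assembly, stood at 76.1%. Sub1, Hopx, Tceb1, Camta1 and Gtf2b lay within the range of this group, 57.7 to 80.6% of WT.

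The 10 members of mRNA processing had the smallest decreases, with a median of 79.3% of WT. Rbm8a, a core protein of the exon junction complex, measured 1585, 1615, 1492 and 2010.3 in WT and 1213, 1412, 1154 and 1184 in KO, or 74.1%. Thoc3, of the complex that couples transcription to mRNA export, measured 838, 809.5, 851 and 1096 in WT and 621, 786, 682 and 564 in KO, or 73.8%, with WT 4 above the other 3. The lowest in this group was the cap methyltransferase Rnmt at 64.4%, and the highest was Ythdc1, the nuclear reader of methylated adenosine, at 83.4%. Rbbp6, Ccnl1, Zmat2, Ints7 and Prpf18 lay between them. In a list of 70 symbols of splicing, processing and export, 3 were listed and all 3 were lower, beside 41.9% of all listed genes. The 2 members among them are lower by the rule, and Ilf2 stood at 80.1% of WT with overlapping groups.

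Ubiquitin and SUMO genes also differed by little, with 5 members between 78.6 and 81.9% of WT. Ube2d2a, an E2 enzyme that passes ubiquitin to many substrates, measured 3887, 4306, 3674 and 4003 in WT and 2976, 3529, 3196 and 2840.5 in KO. Uba2, a subunit of the enzyme that activates SUMO, measured 2683, 3042, 2834 and 3052 in WT and 2366, 2619, 2329 and 2171 in KO. Uchl5, a deubiquitinase of the proteasome, measured 753, 845, 746 and 839 in WT and 631, 683, 661 and 536 in KO, or 78.9%. The remaining members were Ubxn8 at 78.6% and Plaa at 81.9%. The order of the libraries was similar in Ube2d2a and Uba2, with KO 4 the lowest and KO 2 the highest KO library of each.

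Membrane traffic supplied 10 members. Atp6v1c1, a subunit of the proton pump of lysosomes, measured 1243, 1571, 1077 and 1478 in WT and 945, 1053, 1031 and 1054 in KO, or 76.1%, and here KO 4 was the highest KO library. Others act in the early secretory route (Tmed4, Cnih1, Trappc4, Rcn2 and Tmem208), in the lipid tagging of Rab proteins (Rabggtb), in growth factor release (Rhbdf2) and in endocytic sorting (Snx18). These ran from 65.4% of WT for Rcn2 to 79.6% for Tmed4.

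Of 5 members with roles in cell death and mitochondria, Ngfrap1 is described above and Tomm34, a cytosolic helper of mitochondrial import, measured 973, 1231, 883 and 1133 in WT and 851, 866, 830.1 and 802 in KO, or 79.4% of WT with a narrow gap. Armc10, Bnip2 and Aven lay between 67.5 and 78.3%. Little is known of the roles of 5 members, which include 1 identifier with no symbol. Among them Fam118a measured 615, 666, 601 and 1060.3 in WT and 456, 488, 473 and 181 in KO, and 54.3% of WT became 63.7% without WT 4 and 64.2% without KO 4. Btbd19 measured 899.8, 811, 702 and 697 in WT and 451, 583, 610.4 and 175 in KO, where KO 4 was much the lowest, or 58.5% of WT and 70.5% without KO 4. The other 3 lay between 68.1 and 71.8%.

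The mean threshold passed through a continuous range of levels. Just inside it lay Ptrh2, Gpn2 and Ubxn8, with means of 535, 536 and 545 normalized counts and KO at 79.1, 76.1 and 78.6% of WT. Just outside it lay Tnfaip2, Hap1 and Fam185a, with means of 494, 473 and 460.0 and KO at 56.1, 71.1 and 78.0%. The gap between groups was also narrow for many members: the lowest WT value was a median of 1.06 times the highest KO value, under 1.02 times for 10 genes and above 1.1 times for 27. The spread within groups had a median SD of 11.5% of the mean in WT and 10.9% in KO. As a percent of its group's mean, the SD was larger in KO for 51 of the 99.

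The members had shorter listed lengths than the abundant genes that lay higher, which is given as a description. Their median length in the deposited table was 3026 bases (quartiles 2039 and 4504), against 5812 bases (3590 and 8287) for the 144 abundant genes that lay wholly higher in KO under the same rule, and 4306 bases for all 493 abundant protein-coding genes. Length was not used by the rule, but read counts depend on it and its part in the difference was not tested. Of the 99 genes, 53 lie on the plus strand and 46 on the minus strand. Some members are near neighbours: Nudc and Gpn2 lie 44296 bases apart, Thoc3 and Nop16 130248, Tmed4 and H2afv 169001 and Atp6v1c1 and Fzd6 193024.

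Matches to the miR-29 seed were looked for in the longest annotated 3′ untranslated region of each gene (GENCODE M21, build GRCm38). TGGTGCT was present in 12 of 97 members with such a region (12.4%), in 78 of 391 other abundant listed genes (19.9%) and in 13.1% of 21020 protein-coding genes. The median length of the region was 995 bases in members, 1269 in the other abundant listed genes and 961 in all genes. The 12 members with a match had a median KO level of 69.9% of WT, and the 85 without one 74.4%. A match in Mad2l1 and 2 in Rnaseh2a are shown as examples with 9 bases on either side and the match in capitals, as messages read 5′ to 3′. The match shown for Mad2l1 lies at chr6:66541070-66541094 on the plus strand, and those of Rnaseh2a lie at chr8:84957177-84957201 and chr8:84957115-84957139 on the minus strand.
Mad2l1: tatttagttTGGTGCTaatatagtc
Rnaseh2a, site 1: ctgctctgtTGGTGCTgatctgaac
Rnaseh2a, site 2: atttttcttTGGTGCTccctctttg
Both genes were lower in KO, at 67.2 and 63.9% of WT. A match of letters shows neither that the site is used nor that the miRNA is present in the cells measured.

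Promoters were compared over RefSeq windows of 300 bases, 250 before the start and 50 after it (GRCm38.p6), which 73 of the 99 members had. Of 8 motifs searched on both strands, the E-box CACGTG, which MYC and related factors bind, had the highest share in members relative to other abundant listed genes. It was present in 15 of the 73 windows (20.5%), in 23 of 297 windows of other abundant listed genes (7.74%), in 11 of 108 windows of abundant genes wholly higher in KO (10.2%) and in 7.24% of 27025 windows in all. The GC box GGGCGG was present in 75.3% of member windows, 63.3% of other abundant ones, 71.3% of those wholly higher and 35.9% of all. The E2F motif GGCGGGA was present in 31.5, 24.2, 22.2 and 11.4% of them in the same order, and the CCAAT box in 45.2, 39.7, 34.3 and 37.9%. The ETS motif CCGGAAG was present in 16.4, 13.1, 15.7 and 9.12%, and the CREB motif TGACGT in 16.4, 11.8, 10.2 and 7.64%. The TATA box TATAAA was present in 8.22, 9.76, 4.63 and 14.2%, and the AP-1 motif TGACTCA in 1 member window (1.37%) and in 5.05, 6.48 and 5.17%. None of these 8 motifs contains another, though a GC box and an E2F motif can share bases. Windows of members were richer in G and C than all windows, with a median of 62.3% against 52.7%, and close to the other abundant listed genes at 61.3%, and GC content moves with the shares of the motifs rich in G and C. The shares are a description of these windows.

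**Figure D4:**
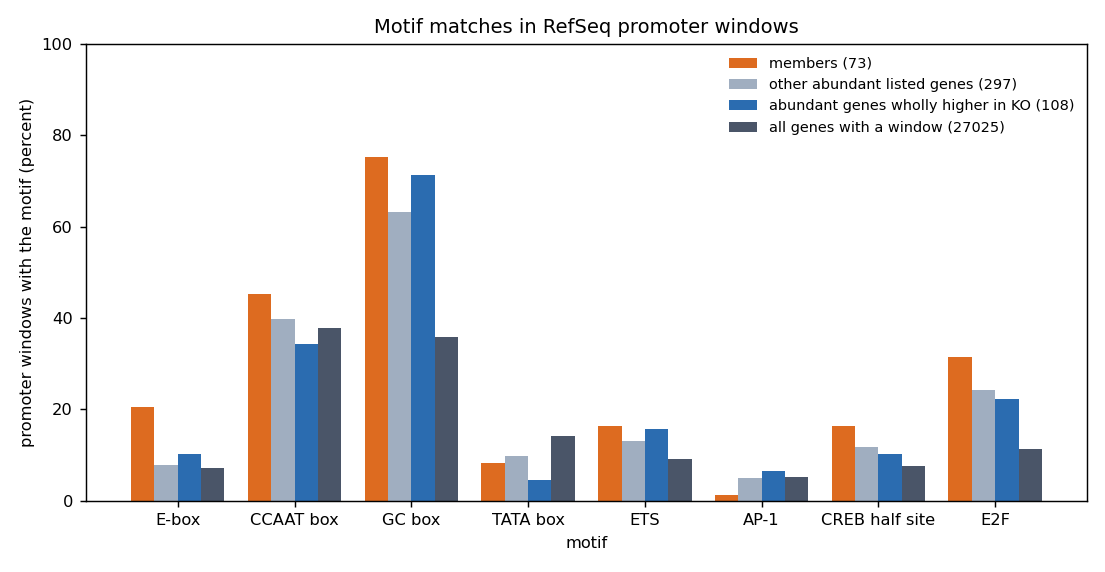
Percent of RefSeq promoter windows that hold each of 8 motifs, for the 73 members with a window, 297 other abundant listed genes, 108 abundant genes wholly higher in KO and all 27025 windows. The members' bar for the E-box reaches 20.5%, against 7.74%, 10.2% and 7.24% for the others.

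The 15 members with an E-box were 1700037H04Rik, 2700094K13Rik, Anp32b, Apex1, Bzw2, Dusp1, Gtf2h5, Hdgf, Knstrn, Ngfrap1, Nme1, Prdx4, Sms, Snx18 and Sub1. They come from most of the role groups. Their median KO level was 72.6% of WT and that of the 58 without one 74.6%. The windows of the 5 with the lowest KO level are shown as 36 bases on the gene's strand, 5′ to 3′, with the E-box in capitals, because they combine the motif with the largest decreases among its carriers. They lie at chr2:84670709-84670744 (minus strand), chrX:136270265-136270300 (plus), chr11:93968270-93968305 (minus), chr17:6079716-6079751 (plus) and chrX:157492463-157492498 (minus).
2700094K13Rik: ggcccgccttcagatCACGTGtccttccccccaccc
Ngfrap1: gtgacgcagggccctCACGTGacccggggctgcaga
Nme1: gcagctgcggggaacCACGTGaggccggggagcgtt
Gtf2h5: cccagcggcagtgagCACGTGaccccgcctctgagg
Sms: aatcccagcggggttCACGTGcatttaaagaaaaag
The E-box begins 21 bases before the annotated start in 2700094K13Rik, 27 after it in Ngfrap1, 18 before it in Nme1, 97 before it in Gtf2h5 and 196 before it in Sms. KO levels of these genes were 53.3, 63.9, 66.1, 67.5 and 70.7% of WT.

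Apex1 was the only member with 3 E-boxes in its window. The whole window (chr14:50924699-50924998, plus strand) is printed with E-boxes and CCAAT boxes in capitals.
Apex1: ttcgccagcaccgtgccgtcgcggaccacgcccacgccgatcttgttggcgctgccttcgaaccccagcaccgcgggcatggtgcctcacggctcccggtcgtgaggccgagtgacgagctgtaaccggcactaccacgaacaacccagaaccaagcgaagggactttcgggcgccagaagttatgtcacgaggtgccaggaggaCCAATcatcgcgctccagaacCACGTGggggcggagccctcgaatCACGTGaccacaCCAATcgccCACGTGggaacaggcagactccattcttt
Its E-boxes begin 24 bases before the start, at the start itself and 21 bases after it, and its 2 CCAAT boxes lie beside them. Apex1 measured 1789, 1516, 1642 and 2106 normalized counts in WT and 1458, 1404, 1221 and 1041 in KO. WT 4 was the highest and KO 4 the lowest library, and the KO mean was 72.6% of WT.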

How the data were processed

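Total RNA of colon tumours was sequenced in 4 WT and 4 KO libraries, with a strand-marking kit named in the labels' protocols. HISAT2, DESeq2 and GRCh38, a human build, are named in the submitters' processing notes, whereas gene identifiers are those of the mouse strain C57BL/6NJ, so the table's coordinates were compared with no other build. For the counting tool and its strand setting, the sources used here give nothing. The authors deposited 1 table of 1428 genes with a normalized signal per library (counts divided by size factors), a log2 fold change (KO over WT), and a p-value and adjusted p-value, per the file headers. Each library's values were whole multiples of 1 step within 0.01, with size factors of 0.933 to 1.12, and the adjusted p-values correspond to 19985 genes.

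The members and lists were chosen with earlier results of these data known, and roles were assigned once the members were known. Groups were taken from sample titles. Means and SDs over 4 libraries, and KO as percent of the WT mean, were computed with Python 3.11.15, pandas 2.3.3 and numpy 2.4.6. Genes were named by rule: the 12 of highest mean, the 12 with the most negative deposited fold change, the 6 with the widest gap, up to 6 per list, and 3 each just inside and outside the threshold and with the narrowest gap. Other members are named only to describe their role groups, and not every member is named. As an alternative, limma 3.58.1 in R 4.3.3 was fitted to log2 of the value plus 1 over all listed genes and adjusted over 19985. It was also run on simulated data, with planted changes larger than those of nearly all members and an adjustment over the listed genes only. That run does not show whether changes of the members' size would be called. Others were a pseudocount of 0.1, a mean of at least 10, a replicate block, other thresholds and leaving out each library. Separate animals are not named in the labels, so any p-value reflects variation among libraries that could be technical. Promoter windows were matched by symbol, or for 5 members by RefSeq synonym, and kept only on the table's chromosome, and in 69 of 72 compared the last 20 bases were found in a transcript of the same gene. Some values are not reported here.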

Additional observations from a re-analysis of the deposited data

Results flagged for a closer look

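Within groups of 4 libraries, 1 library lay far from the other 3 in 14 of the 104 groups of the 52 named genes. Chance gives about 1 in 20 groups in independent data, but that share does not carry over here, since the genes were chosen on these values and all groups share the same 8 libraries. In 10 of them WT 4 was the high library. It stood at 8220.1 normalized counts for Prdx2, where the other WT libraries reached 6640 at most. Stmn1 stood at 6766 in WT 4 against at most 4574 in the others, Phgdh at 1830.2 against 706, and 2700094K13Rik at 1354 against 734. The WT 4 value of Gm6576 was 4291 against 1700.3, that of Shfm1 3835 against 1726 and that of Cbx3 2424 against 1318. Rnaseh2a measured 1494 in WT 4 against 850.2, Thoc3 1096 against 851 and Fam118a 1060.3 against 666.

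In the other 4 groups KO 4 was the low library. Prdx2 stood at 3011 there, where the other KO libraries were at least 5077. 2700094K13Rik measured 300.4 in KO 4 against at least 503, Fam118a 181 against at least 456, and Tnfaip2, which lies just below the mean threshold, 203.5 against at least 394. Prdx2, 2700094K13Rik and Fam118a were thus marked in both groups, and their groups do not overlap, as the rule requires.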

How the results depend on the processing

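The number of members was 99 at a mean of at least 500 normalized counts, 120 at 250 and 60 at 1000. Leaving out 1 library gave 99 to 120 genes, and leaving out WT 4 and KO 4 together, an alternative chosen after seeing the data, gave 105. The median log2 fold change of -0.44 was also -0.44 as a ratio of means, with limma at pseudocounts of 1 and 0.1 and with a mean of at least 10. It ran from -0.49 to -0.37 with 1 library left out and was -0.32 without WT 4 and KO 4. Rescaling the libraries to a median ratio of 1 over the listed genes, also added after seeing the data, moved it to -0.60, shifted all listed genes by -0.18 and left all 99 members wholly lower, with 122 genes meeting the rule. All 99 fold changes were negative in every limma fit run, which the rule fixes, since every KO value of a member lies below every WT value. In every limma fit 0 genes passed an adjusted p of 0.05, and limma gave 97 at an unadjusted p below 0.05. With the replicate number as a block the median was -0.44 and again 0 genes passed; same-numbered libraries did not deviate together (correlations of 0.098, -0.062, -0.26 and -0.29 over 1192 genes, and 2 of 8 libraries correlated best with their own number). The named genes all lay wholly lower in KO, so only the rescaling could have changed their sign. Of 780 values of named genes under alternatives, 752 stayed within 1 SD, 28 moved further and 0 changed sign. Among them, without WT 4 and KO 4 the log2 fold change was -0.60 for Phgdh, -0.45 for 2700094K13Rik, -0.27 for Cebpb and -0.15 for Gm6576.

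The planned edgeR and DESeq2 refits and TMM scaling were not run, because count models were not applied to values deposited after normalization, and limma stood in for them. The labels state no library depth, so no counting interval was computed.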
